A study of Mus musculus with 9 samples.

Results

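Among 3 liver metastases grown from the same mouse tumour line, 1 (metastasis 2) expressed a set of genes at levels far from those of the others. The 10 genes described here, Cntn1, Ucn3, Twist2, Tmem59l, Ntm, Aard, Dab1, Gpr142, Tex101 and Basp1, were selected on those measured levels: in each, metastasis 2 lay at least 4-fold above or at least 4-fold below both metastasis 1 and metastasis 3. They are 10 of 21944 protein-coding genes in the table, and 273 genes met the same rule when the higher side had to reach 1 FPKM (fragments per kilobase of transcript per M mapped fragments, a level corrected for transcript length and library size). Of these 273 genes, 73 were higher and 200 lower in metastasis 2, and 8 of the 10 genes were among the former and 2 among the latter. Because the contrast among metastases chose the genes, it is given as a description with no test. The 6 subcutaneous tumours of the study were not used in the choice, and the test between them is the only one reported.

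The study concerned RHAMMB, an isoform of the hyaluronan receptor RHAMM, in metastasis of pancreatic neuroendocrine tumours. Total RNA was sequenced from 3 groups of 3 samples, all grown in NSG mice (NOD.Cg-PrkdcscidIl2rgtm1Wjl/SzJ), a strain that lacks mature lymphocytes. The groups were subcutaneous tumours of the parental mouse line N134 (tumours 1, 2 and 3), subcutaneous tumours of N134-RHAMMB (tumours 1, 2 and 4), and liver metastases of N134-RHAMMB (metastases 1, 2 and 3), the labels giving subcutaneous and tail-vein injection as the routes. N134 and N134-RHAMMB are each a single cell line. The labels give no age, sex or harvest time, and do not say whether the samples of a group came from separate mice, so a p-value here measures sample-to-sample spread, which could be technical in origin. Islet beta cell markers were high in all 9 libraries, with a summed level of 30391 to 47329 FPKM over 9 genes.

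Several of the 10 genes are best known from neurons, which share much of their secretory and adhesion machinery with islet cells. Cntn1 (contactin 1) and Ntm (neurotrimin) encode immunoglobulin-domain adhesion proteins held in the membrane by a lipid anchor, and Dab1 encodes the adaptor that carries the reelin signal into the cell. Ucn3 (urocortin 3) is a peptide hormone of the corticotropin-releasing family and is made by mature beta cells. Gpr142 is an islet receptor that responds to aromatic amino acids. Twist2 is a basic helix-loop-helix transcription factor of mesenchymal cells. Tex101 encodes a lipid-anchored surface protein of the LY6/uPAR family that is typical of male germ cells. Basp1 encodes a myristoylated protein of the inner membrane and growth cone.

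Metastasis 2 was outside the range of all 6 subcutaneous tumours for 10 of the 10 genes, above it for 8 and below it for 2. Over all 12854 genes with at least 1 FPKM in at least 3 libraries, metastasis 2 was outside that range for 56.1%. The other metastases did not simply match the subcutaneous tumours. For 7 of the 8 genes that were high in metastasis 2 (all but Ntm), the 6 subcutaneous values lay between metastasis 2 on one side and metastases 1 and 3 on the other. That arrangement held for 4.57% of all genes tested, and for 27 of the 49 genes that passed the rule in the upward direction and the filter (55.1%). Both metastases 1 and 3 lay inside the subcutaneous range for 1 of the 10 genes (Ntm), against 43.5% of all genes. Since the rule asked for a gap among the metastases, these shares describe the genes and are no test of them.

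**Figure D1:**
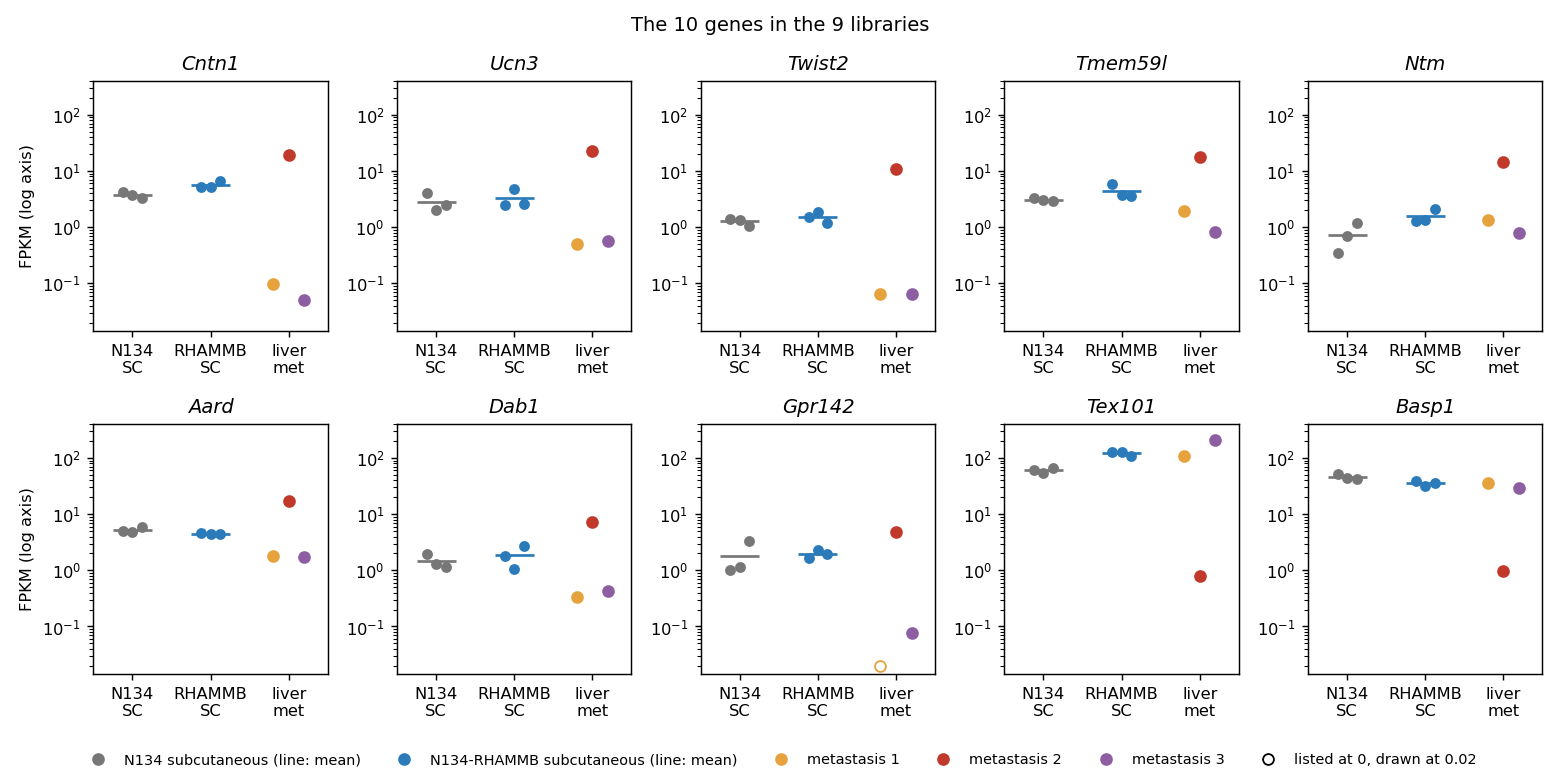
Level of each of the 10 genes (FPKM, log axis) in the 3 N134 subcutaneous tumours, the 3 N134-RHAMMB subcutaneous tumours and the 3 liver metastases, with a line at the mean of each subcutaneous group. Metastasis 2 is the highest library for 8 genes and the lowest for Tex101 and Basp1, and the open circle marks Gpr142 listed at 0 in metastasis 1.

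The stretches just upstream of the transcription start are shown for the 3 genes with the largest gain against the mean of metastases 1 and 3 on the log2(FPKM + 1) scale and for the 2 that were low, because they differ in their content of CpG, the pair of bases that is the target of DNA methylation. Each is the 250 bases before the start site in RefSeq (GRCm38.p6), 5′ to 3′ on the gene's strand, with every CG in capitals. Where the table lists several starts (3 for Cntn1), the one nearest the 5′ end of the gene in the deposited table was taken. The windows are chr15:92050915-92051164 on the plus strand for Cntn1, chr13:3945350-3945599 on the minus strand for Ucn3, chr1:91801211-91801460 on the plus strand for Twist2, chr7:24672051-24672300 on the minus strand for Tex101 and chr15:25413765-25414014 on the minus strand for Basp1. The RefSeq start of Tex101 lies 4625 bases inside the 5′ end of the gene in the deposited table.
Cntn1: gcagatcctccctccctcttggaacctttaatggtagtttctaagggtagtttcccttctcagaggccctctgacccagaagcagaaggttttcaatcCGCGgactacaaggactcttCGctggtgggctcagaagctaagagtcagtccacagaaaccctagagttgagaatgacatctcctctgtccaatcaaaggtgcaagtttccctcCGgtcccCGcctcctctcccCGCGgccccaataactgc
Ucn3: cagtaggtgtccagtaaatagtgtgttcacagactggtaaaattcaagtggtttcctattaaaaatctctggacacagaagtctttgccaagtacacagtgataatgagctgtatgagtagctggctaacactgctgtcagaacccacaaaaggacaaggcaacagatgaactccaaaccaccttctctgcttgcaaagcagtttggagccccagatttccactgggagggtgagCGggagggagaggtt
Twist2: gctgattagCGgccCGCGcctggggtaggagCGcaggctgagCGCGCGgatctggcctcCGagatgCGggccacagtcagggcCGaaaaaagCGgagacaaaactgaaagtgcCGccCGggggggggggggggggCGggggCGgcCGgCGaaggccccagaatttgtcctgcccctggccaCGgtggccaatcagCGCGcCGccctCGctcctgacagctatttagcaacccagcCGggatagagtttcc
Tex101: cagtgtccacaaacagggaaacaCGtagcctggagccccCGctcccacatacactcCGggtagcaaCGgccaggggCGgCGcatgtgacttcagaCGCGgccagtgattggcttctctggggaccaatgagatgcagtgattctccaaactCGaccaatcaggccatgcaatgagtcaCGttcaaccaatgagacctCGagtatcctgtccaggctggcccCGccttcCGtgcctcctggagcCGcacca
Basp1: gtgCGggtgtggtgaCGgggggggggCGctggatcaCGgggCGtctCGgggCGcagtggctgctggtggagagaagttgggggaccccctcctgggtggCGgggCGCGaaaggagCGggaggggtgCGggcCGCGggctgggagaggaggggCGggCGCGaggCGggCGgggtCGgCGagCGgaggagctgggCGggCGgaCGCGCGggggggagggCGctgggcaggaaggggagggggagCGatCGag

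The Basp1 window held 30 CG pairs and that of Twist2 held 23, whereas the Ucn3 window held 1 and the Cntn1 window 7. A start site was found in the table for 9 of the 10 genes. Of those 9, 44.4% had an observed over expected CpG ratio of at least 0.6, compared with 34.0% of all 32851 windows of this length in the table. CpG-rich and CpG-poor windows occurred among the genes that were high: the ratio was 0.788 for Twist2 and 0.0751 for Ucn3. Among the low genes it was 1.05 for Basp1 and 0.639 for Tex101. The E-box CANNTG, the motif read by helix-loop-helix factors such as Twist2, reads the same on both strands and was counted with overlaps allowed. It occurred at least once in 6 of the 9 windows (66.7%) and in 66.2% of all windows. The Ntm start lies 549689 bases inside the gene and the bases after it match none of the table's transcripts. Without Ntm, 4 of 8 windows passed the CpG ratio and 5 of 8 (62.5%) held the E-box. A match of these letters is a description of the sequence, not of binding.

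Among the adhesion genes, Cntn1 (ENSMUSG00000055022, GRCm38 chr15:92051165-92341967) was at 0.0979 FPKM in metastasis 1, 19.2 in metastasis 2 and 0.0511 in metastasis 3. In the subcutaneous tumours it was at 4.23, 3.73 and 3.30 FPKM in N134 tumours 1, 2 and 3, and the N134-RHAMMB tumours 1, 2 and 4 had 5.26, 5.16 and 6.71 FPKM. Metastasis 2 was thus 3.36 times the N134-RHAMMB subcutaneous mean, while metastases 1 and 3 were 58.3-fold and 112-fold below it. Metastasis 2 was 196-fold above metastasis 1. The value of metastasis 3 corresponded to an estimated 3 fragments on the shortest annotated transcript, so the ratio of 375 between metastases 2 and 3 is imprecise. The mean of the 3 metastases, 6.43 ± 11.0 FPKM (SD, n = 3), was 1.13 times that of the N134-RHAMMB subcutaneous tumours, 5.71 ± 0.866 (SD, n = 3), although no metastasis was near it.

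Ntm (ENSMUSG00000059974, chr9:28994750-29963141) was at 1.32, 14.6 and 0.775 FPKM in metastases 1, 2 and 3. Its subcutaneous values were 0.343, 0.687 and 1.18 FPKM in the N134 tumours and 1.30, 1.35 and 2.09 FPKM in the N134-RHAMMB tumours. Here metastases 1 and 3 were ordinary beside the subcutaneous tumours, and metastasis 2 alone stood apart, at 9.23 times the N134-RHAMMB mean. Metastasis 2 was 11.1-fold above metastasis 1 and 18.8-fold above metastasis 3.

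Dab1 (ENSMUSG00000028519, chr4:103619359-104744844) was at 0.337, 7.23 and 0.422 FPKM in metastases 1, 2 and 3. The N134 tumours had 1.97, 1.31 and 1.16 FPKM and the N134-RHAMMB tumours 1.77, 1.07 and 2.75 FPKM. The subcutaneous groups overlapped, and all 6 values lay between metastasis 2 and the others. The ratios of metastasis 2 to metastases 1 and 3 were 21.5 and 17.1. If the fragments came from the shortest of its 8 annotated transcripts, each of the low libraries held an estimated 3 fragments. Both ratios are then imprecise. On the longest transcript those libraries would hold about 30.5 and 36.5 fragments.

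Among the genes of islet signalling, Ucn3 (ENSMUSG00000044988, chr13:3940688-3945349) was at 0.498, 22.4 and 0.555 FPKM in metastases 1, 2 and 3. It was at 4.09, 2.01 and 2.47 FPKM in the N134 tumours and at 2.46, 4.80 and 2.57 FPKM in the N134-RHAMMB tumours. Metastasis 2 was 45.0-fold above metastasis 1 and 40.4-fold above metastasis 3, and all 6 subcutaneous tumours fell in the gap. Relative to the N134-RHAMMB subcutaneous mean, metastasis 2 was at 6.83 times, and metastases 1 and 3 were 6.59-fold and 5.91-fold lower.

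Gpr142 (ENSMUSG00000034677, chr11:114798924-114806745) was listed at 0 in metastasis 1 and had 4.78 FPKM in metastasis 2 and 0.0773 in metastasis 3. Its subcutaneous values were 1.03, 1.14 and 3.28 FPKM for N134 and 1.69, 2.28 and 1.97 FPKM for N134-RHAMMB. No fold is given against metastasis 1. Against metastasis 3, whose value is that of about 1 fragment, the ratio of 61.9 is imprecise. Among the 8 high genes, Gpr142 had the smallest excess of metastasis 2 over the N134-RHAMMB subcutaneous mean, 2.41 times.

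The transcription factor gene Twist2 (ENSMUSG00000007805, chr1:91801461-91848028) was at 0.0643, 10.7 and 0.0652 FPKM in metastases 1, 2 and 3. The N134 tumours had 1.40, 1.34 and 1.06 FPKM and the N134-RHAMMB tumours 1.54, 1.88 and 1.19 FPKM. All 6 subcutaneous tumours had a low but measurable level, well above the low metastases and well below metastasis 2. On the shortest transcript the low values are those of about 1 fragment each, so the ratios of 166 and 164 are imprecise.

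Tmem59l (ENSMUSG00000035964, chr8:70483867-70487358), a membrane protein gene related to Tmem59, was at 1.97, 17.8 and 0.828 FPKM in metastases 1, 2 and 3. Its values were 3.29, 3.02 and 2.89 FPKM in the N134 tumours and 5.91, 3.81 and 3.54 FPKM in the N134-RHAMMB tumours. Metastasis 2 was 9.06-fold above metastasis 1, the smallest gap to the nearer metastasis among the 7 high genes with a ratio to both, and 21.5-fold above metastasis 3. Aard (ENSMUSG00000068522, chr15:52040107-52045722), named for an alanine- and arginine-rich domain, was at 1.804, 17.5 and 1.75 FPKM in metastases 1, 2 and 3. It was even across the subcutaneous tumours, with 5.08, 4.81 and 6.02 FPKM for N134 and 4.54, 4.37 and 4.45 FPKM for N134-RHAMMB. Metastasis 2 was 9.71-fold above metastasis 1 and 10.03-fold above metastasis 3 for Aard, and metastases 1 and 3 were 2.47-fold and 2.55-fold below the N134-RHAMMB subcutaneous mean.

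Both low genes differed in the reverse direction and had a much higher usual level. For neither did the subcutaneous values all lie between metastasis 2 and both other metastases. Tex101 (ENSMUSG00000062773, chr7:24668007-24676675) was at 107 FPKM in metastasis 1, 0.778 in metastasis 2 and 209 in metastasis 3. It was at 62.2, 54.0 and 67.1 FPKM in the N134 tumours and at 127, 130 and 109 FPKM in the N134-RHAMMB tumours. Metastasis 2 was 137-fold below metastasis 1, 269-fold below metastasis 3 and 157-fold below the N134-RHAMMB subcutaneous mean of 122 ± 11.6 (SD, n = 3). Metastasis 1 fell inside the subcutaneous range and metastasis 3 above it.

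Basp1 (ENSMUSG00000045763, chr15:25363285-25413764) was at 36.5, 0.974 and 29.6 FPKM in metastases 1, 2 and 3. The N134 tumours had 52.5, 43.9 and 41.5 FPKM and the N134-RHAMMB tumours 38.9, 32.4 and 36.0 FPKM. Metastasis 2 was 37.5-fold below metastasis 1, 30.4-fold below metastasis 3 and 36.7-fold below the N134-RHAMMB mean. Metastasis 1 was inside the subcutaneous range, and metastasis 3 was slightly below its lowest value. The levels of Tex101 and Basp1 in metastasis 2 rested on an estimated 15.2 to 17.5 and 33.3 fragments, so both transcripts were still detected there.

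**Figure D2:**
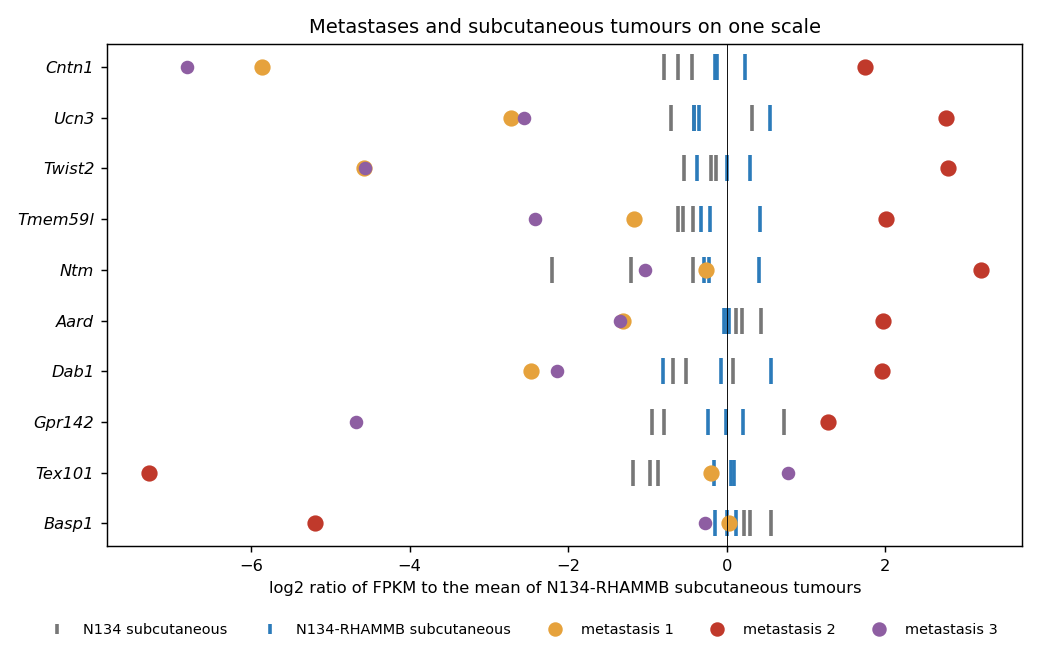
Log2 ratio of each library's FPKM to the mean of the 3 N134-RHAMMB subcutaneous tumours, for each of the 10 genes; ticks are subcutaneous tumours and circles metastases, and Gpr142 in metastasis 1, listed at 0, is not drawn. For all genes but Ntm, Tex101 and Basp1 the subcutaneous ticks sit between metastasis 2 and the other metastases, and for Tex101 and Basp1 metastases 1 and 3 sit among or near the ticks.

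Within the subcutaneous groups some of these genes varied more than most. The median ratio of the highest to the lowest of 3 samples was 1.24 in the N134 and 1.26 in the N134-RHAMMB group. It covers genes with at least 1 FPKM in all 3 samples of the group (11850 and 11742 genes). For the 10 genes the ratio ran from 1.14 (Tmem59l) to 3.44 (Ntm) in the N134 group and from 1.04 (Aard) to 2.56 (Dab1) in the N134-RHAMMB group. Ntm was below 1 FPKM in N134 tumours 1 and 2 (0.343 and 0.687 FPKM), so that median does not cover genes as low as Ntm. Among the metastases the ratio ran from 10.03 (Aard) to 375 (Cntn1), which the rule fixed to be at least 4. Gpr142, listed at 0 in metastasis 1, has no ratio there. Genes near the threshold lay far from the 10 described here. Among genes with the higher side at 5 FPKM or more, Tmod1 at 4.05-fold and Stxbp5l at 4.04-fold were just inside it. Pm20d1 and Asic1, both at 3.98-fold, were just outside it, against 9.06-fold for Tmem59l and 30.4-fold for Basp1. Genes with only a clone or predicted-gene name were passed over here.

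Whether the 10 genes differed between the lines was tested in the subcutaneous tumours, with limma on log2(FPKM + 1) and Benjamini-Hochberg adjustment over all 12854 genes. Only Tex101 passed an adjusted p of 0.05, among the 10 genes. It was higher in N134-RHAMMB than in N134 tumours by 0.99 on the log2 scale (SE 0.107, limma adjusted p = 0.0199, n = 3 and 3), and the means differed 1.997-fold, with all 3 N134-RHAMMB values above all 3 N134 values. Calls of this kind were made for 1.31% of all genes in either direction (169 genes) and for 0.739% in the upward direction (95 genes), so 1 of 10 is a count too small to set apart from that background. The Tex101 call was lost in limma without N134 tumour 1 (adjusted p = 0.0796), without N134 tumour 2 (0.0751), without N134-RHAMMB tumour 1 (0.0884) or without N134-RHAMMB tumour 2 (0.0635). It was also lost with no filter on low genes (limma adjusted p = 0.0560) and in a fit with metastases 1 and 3 added (0.0546). With all 3 metastases in the fit the limma adjusted p was 0.823. The selection on metastasis 2 fixed a large spread in that fit, so its value is no check of the call. The difference itself ran from 0.90 to 1.14 over 16 alternatives.

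The other 9 genes did not pass the test. Cntn1 differed by 0.49 (SE 0.147, limma adjusted p = 0.138) and Ntm by 0.59 (SE 0.201, limma adjusted p = 0.179), N134-RHAMMB minus N134 on the log2 scale. Basp1 differed by -0.35 (SE 0.113, limma adjusted p = 0.161), and with Tex101 these were the 4 genes at an unadjusted p under 0.05, a level that 19.7% of all genes reached (2532 of 12854). Tmem59l differed by 0.39 (SE 0.181) and Aard by -0.20 (SE 0.1250), and the remaining differences were 0.14 for Ucn3 (SE 0.269), 0.16 for Twist2 (SE 0.132), 0.18 for Dab1 (SE 0.232) and 0.17 for Gpr142 (SE 0.284). The 3 values of one subcutaneous group lay entirely above those of the other for 6 of the 10 genes (Cntn1, Tmem59l, Ntm, Aard, Tex101 and Basp1), compared with 25.3% of all genes.

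Other cell types also differed between the subcutaneous groups. Summed fibroblast markers were at 693 to 966 FPKM in N134 and 342 to 569 FPKM in N134-RHAMMB tumours (10 genes, of which Dcn, Lum and Pdgfra were lower in N134-RHAMMB in limma). Macrophage markers summed to 288 to 505 FPKM in N134 and 218 to 273 FPKM in N134-RHAMMB tumours, with 7 of 11 genes at an unadjusted p under 0.05 in limma and none at an adjusted one. Erythroid markers summed to 973 to 1947 FPKM and 397 to 862 FPKM, with 4 of 4 genes at an unadjusted p under 0.05 and again none after adjustment in limma. Hepatocyte markers had overlapping sums, 407 to 496 FPKM in N134 and 388 to 494 FPKM in N134-RHAMMB tumours. Of those 15 genes, 9 were at an unadjusted p under 0.05 in limma, and 1 was higher in N134-RHAMMB after adjustment. That unadjusted level was reached by 19.7% of all genes. N134-RHAMMB tumours 2 and 4 also carried skeletal muscle markers, which summed to 154 and 190 FPKM there and to between 4.57 and 19.2 FPKM in the other 7 libraries. In N134-RHAMMB tumours 1, 2 and 4, muscle markers summed to 11.7, 154 and 190 FPKM, and Tex101 was at 127, 130 and 109 FPKM. The part of the fibroblast, macrophage, erythroid, hepatocyte and muscle differences in the values of the 10 genes, the Tex101 difference included, was not tested. In bulk tissue, fewer cells of a type and less RNA per cell cannot be told apart.

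**Figure D3:**
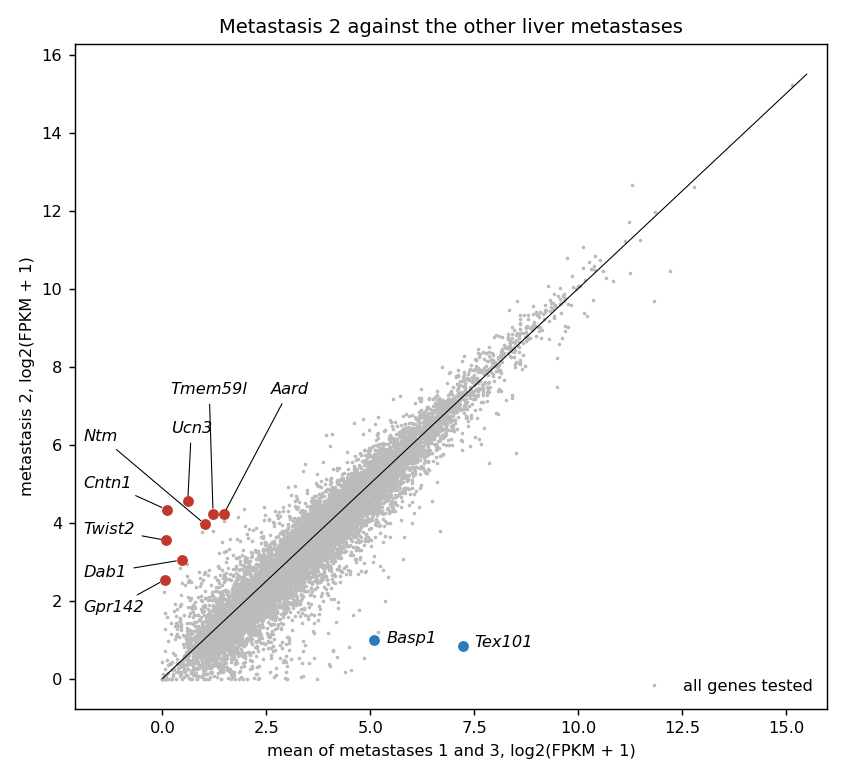
Metastasis 2 (vertical) against the mean of metastases 1 and 3 (horizontal), both as log2(FPKM + 1), for the 12854 genes tested (grey) with equality as a line; red marks the 8 high genes and blue the 2 low ones. The 8 high genes lie 2.48 (Gpr142) to 4.23 (Cntn1) above the line, and the differences of Basp1 and Tex101 from it are -4.10 and -6.40.

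The 10 genes stood in a metastasis in which many genes differed. Of the genes that could meet the rule, 0.599% were at least 4-fold above both other metastases and 1.63% at least 4-fold below both. The same count, 273 genes for metastasis 2, was 57 for metastasis 1 and 43 for metastasis 3. In the subcutaneous tumours, setting each library against the others of its group gave 20 to 70 genes. Across genes, metastasis 2 correlated with metastases 1 and 3 at r = 0.948 and 0.946, while metastases 1 and 3 correlated at 0.979 and pairs within the subcutaneous groups at 0.982 to 0.988. Estimated depth was 14.6 to 18.4 M fragments per library, with the highest value in metastasis 2.

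**Figure D4:**
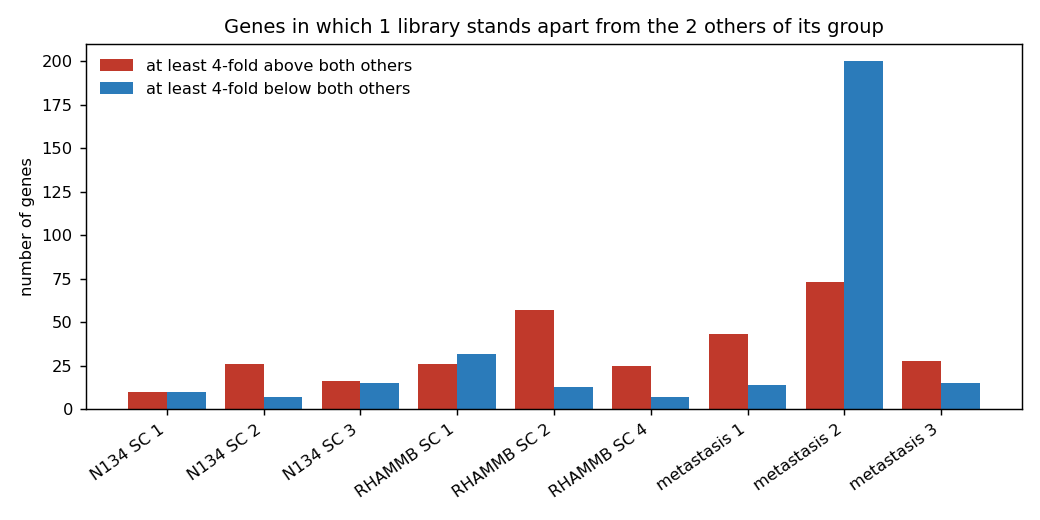
Number of genes in which a library lies at least 4-fold above (red) or below (blue) both others of its group, with the higher side at 1 FPKM or more, for each of the 9 libraries. Metastasis 2 has 73 and 200 such genes, and no other library exceeds 57 above or 32 below.

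Other genes with the largest gaps were of varied kinds. Phf19, a chromatin reader of the Polycomb complex, was at 0.376, 6.16 and 0.289 FPKM in metastases 1, 2 and 3, and the 6 subcutaneous tumours, at 2.22 to 4.19 FPKM, lay between, as they did for Cntn1. Olfm4 was at 0.597, 6.65 and 0.417 FPKM and Mef2b at 0.352, 9.39 and 0.847 FPKM. Among the low genes, Pcdhb6, a clustered protocadherin, was listed at 0 in metastasis 2 against 9.55 and 15.6 FPKM in metastases 1 and 3. Pnma5 was at 6.76, 0.0176 and 6.78 FPKM, Strc at 7.69, 0.0325 and 10.6 FPKM and Slc17a7, a vesicular glutamate transporter, at 9.70, 0.0396 and 9.07 FPKM. Wscd2 was at 5.47, 0.0234 and 5.32 FPKM and Nrxn2, a presynaptic adhesion gene, at 15.8, 0.251 and 15.0 FPKM. For Nrxn2 the subcutaneous tumours (8.75 to 13.2 FPKM) lay below metastases 1 and 3 and far above metastasis 2.

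Relatives and partners of the 10 genes did not move as blocks. Of 17 contactins and their partners, 13 passed the filter, and 1 (Cntn1) was 4-fold higher and 1 (Cntn2) 4-fold lower in metastasis 2. The median difference of that list, metastasis 2 minus the mean of the others on the log2(FPKM + 1) scale, was -0.48, beside -0.09 for all genes. Cntn2, the sister adhesion gene of Cntn1, was at 11.5, 0.8005 and 8.42 FPKM in metastases 1, 2 and 3, the reverse of Cntn1. Cntn6, which did not pass the filter, was also low in metastasis 2, at 0.999995, 0.0992 and 1.53 FPKM. The rule passed over that gap of 10.1-fold because metastasis 1 was just under 1 FPKM. Cntnap2, a contactin-associated membrane protein gene, was at 7.11, 2.17 and 21.7 FPKM, and Tnr, which encodes tenascin-R, a matrix ligand of contactins, was at 34.8, 82.4 and 26.6 FPKM.

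In the IgLON family, to which Ntm belongs, 4 of 5 genes passed the filter and Ntm met the 4-fold rule. Lsamp, another member, was at 1.25, 0.0753 and 0.878 FPKM in metastases 1, 2 and 3, a gap of 11.7-fold that the rule passed over because metastasis 3 was under 1 FPKM, and Negr1 at 18.6, 19.4 and 13.6 FPKM. In the reelin pathway all 16 genes passed the filter and Dab1 alone met the rule. The ligand gene Reln, which stellate cells of the liver also express, was highest in metastasis 2 too, at 15.0, 31.5 and 9.43 FPKM, whereas the receptor genes Lrp8 (14.6, 12.5 and 14.5 FPKM) and Vldlr (12.4, 8.12 and 5.57 FPKM) were not. Src, which encodes a kinase of the family that phosphorylates Dab1, was at 16.8, 5.38 and 15.98 FPKM.

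The receptors of urocortin were near even across the metastases while Ucn3 was not. Crhr2 was at 14.9, 13.8 and 8.98 FPKM and Crhr1 at 23.7, 20.7 and 18.8 FPKM in metastases 1, 2 and 3, and Ucn was listed at 0 in all 9 libraries. Ucn3 was also 1 of 17 beta cell maturity genes, all of which passed the filter. Within that list Ucn3 was 4-fold higher and 1 gene, Slc2a2, which encodes the glucose transporter of rodent beta cells, 4-fold lower in metastasis 2 (61.2, 12.9 and 168 FPKM). Ins1 was at 2649, 824 and 4947 FPKM, Iapp (amylin) at 3139, 6492 and 2049 FPKM and the transcription factor gene Isl1 at 42.7, 104 and 29.2 FPKM. The list therefore held genes that moved with Ucn3 and genes that moved against it, and its median difference was -0.21.

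Among 15 nutrient and peptide receptors of islet cells that passed the filter, Gpr142 was the only one past the 4-fold rule. The median of the list was -0.46. The 4 other receptors with the largest differences were low where Gpr142 was high: Glp1r, the incretin receptor, was at 188, 72.2 and 179 FPKM in metastases 1, 2 and 3, Chrm3 at 8.61, 2.48 and 10.5 FPKM, Sstr5 at 21.4, 6.19 and 18.0 FPKM and Adra2a at 22.3, 8.90 and 26.2 FPKM.

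Twist1, the paralog of Twist2, marked a different metastasis: it was at 0.636, 0.597 and 9.78 FPKM in metastases 1, 2 and 3, and at 1.61 to 2.38 FPKM in the subcutaneous tumours. Of 14 genes of epithelial-mesenchymal transition, 13 passed the filter and Twist2 alone met the rule. Epcam was at 2.85, 0.487 and 1.20 FPKM, the epithelial cadherin gene Cdh1 at 4.29, 1.78 and 3.48 FPKM and the neural cadherin gene Cdh2 at 19.2, 30.4 and 18.2 FPKM. The mesenchymal filament gene Vim was lowest in metastasis 2, at 43.1, 28.4 and 48.6 FPKM.

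Tmem59, the ubiquitous relative of Tmem59l, was at 114, 92.9 and 82.1 FPKM in metastases 1, 2 and 3. Among 8 genes of the LY6/uPAR family past the filter, Tex101 was the only one past the rule, and Ly6a (18.9, 39.8 and 16.1 FPKM) was highest in metastasis 2. Of the family of Basp1, Gap43, which also encodes a growth cone protein, was at 5.36, 10.1 and 3.25 FPKM, and Marcksl1 was at 52.5, 24.4 and 53.0 FPKM. Marcks itself was at 69.8, 76.8 and 79.4 FPKM. In the subcutaneous comparison no gene of the contactin, IgLON, reelin, urocortin, Twist, Tmem59, Basp1 or receptor lists passed in limma. At an unadjusted p under 0.05 in limma were 3 of 13 contactin, 1 of 4 IgLON, 1 of 16 reelin and 2 of 3 urocortin genes. So were 4 of 13 Twist, 0 of 2 Tmem59, 3 of 4 Basp1 and 4 of 15 receptor genes, beside 19.7% of all genes. No list was tested as a whole. In the beta cell maturity list Ins1 was higher and Ero1lb lower in N134-RHAMMB tumours (limma adjusted p = 0.0367 and 0.0269).

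Markers of other cell types were compared across the metastases beside the 10 genes. The 15 hepatocyte markers summed to 6428, 6647 and 6289 FPKM in metastases 1, 2 and 3 and to 388 to 496 FPKM in the subcutaneous tumours. The sums were thus of like size in the 3 metastases, while the median difference of the list in metastasis 2 was 0.20, beside -0.09 for all genes. Islet beta cell markers summed to 41990, 46714 and 47329 FPKM. Neuron markers summed to 292, 292 and 237 FPKM, a sum carried by Map2 (184, 226 and 143 FPKM), while the median difference of the list in metastasis 2 was -0.80, beside -0.09 for all genes. Nefl (14.02, 2.03 and 7.46 FPKM), Nefm (7.09, 2.17 and 5.39 FPKM) and Rbfox3 (2.27, 0.438 and 1.45 FPKM) were lowest in metastasis 2. The 8 markers of Schwann cells and glia summed to 11.0, 8.996 and 10.1 FPKM, with Sox10 and Foxd3 listed at 0 in all 3. Fibroblast markers were lower in metastasis 2, at 429, 221 and 361 FPKM, as were those of pericytes and stellate cells, at 210, 133 and 196 FPKM. The part of these differences in the values of the 10 genes was not tested. Germ cell markers summed to at most 0.541 FPKM in any library, with Prm1, Prm2 and Spata16 listed at 0 throughout, while Tex101 reached 209 FPKM.

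The 10 genes lay on 8 chromosomes. In the metastases, more than in the subcutaneous libraries, the median log2 difference of the genes on some chromosomes was shifted as a whole, and metastasis 2 had the most such chromosomes, 5 beyond 0.15 against 2 in metastasis 1 and 3 in metastasis 3. Relative to all genes, and against the mean of metastases 1 and 3, the median was 0.35 on chromosome 9, 0.31 on chromosome 4, 0.19 on chromosome 1, -0.34 on chromosome 19 and -0.24 on chromosome X. Metastasis 1 reached 0.19 on chromosome 19 and metastasis 3 reached 0.18 on chromosome 8 and -0.20 on chromosome 9, each against a mean that includes metastasis 2. Against the N134-RHAMMB subcutaneous mean, which does not, metastasis 2 was at 0.31 on chromosome 9, and metastases 1, 2 and 3 were at -0.17, -0.23 and -0.22 on chromosome 18. Metastasis 1 was then at 0.068 on chromosome 19, and metastasis 3 at 0.110 on chromosome 8 and -0.075 on chromosome 9. In metastases 1 and 3 no chromosome but 18 was beyond 0.15 on that reference. The largest such shift in any subcutaneous library, against the rest of its group, was 0.0656. Ntm, Dab1 and Twist2 lie on chromosomes 9, 4 and 1, and their own differences of 2.94, 2.58 and 3.45 on the same log2 scale were several times the shift around them. Cntn1, Aard and Basp1 share chromosome 15, whose median was -0.04, and the first pair was high and Basp1 low. The part of the chromosome shifts in the genes' values was not tested.

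**Figure D5:**
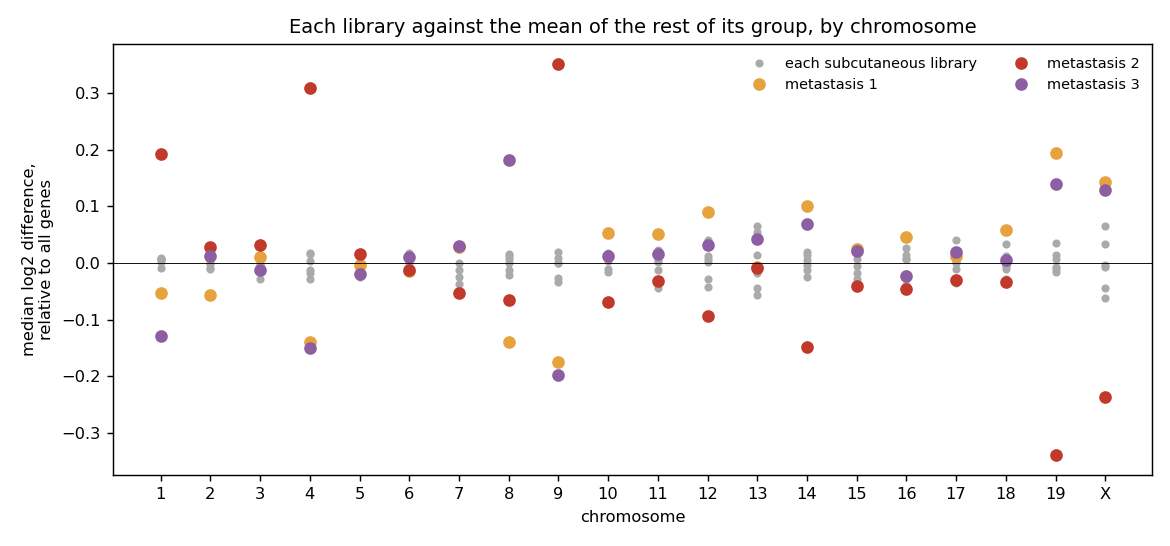
Median log2(FPKM + 1) difference of each library from the mean of the rest of its group, by chromosome and relative to the median of all genes; coloured points are metastases and grey points the 6 subcutaneous libraries. Metastasis 2 reaches 0.35 on chromosome 9 and -0.34 on chromosome 19, while every grey point is within 0.0656 of 0.

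Over the 9 libraries, the gene with the most similar profile (highest Pearson r of log2(FPKM + 1)) was Bzw2 for Basp1 (r = 0.995), Ovol2 for Tex101 (0.989), Cdkn2d for Ucn3 (0.986), Cep112 for Cntn1 (0.984), Cacybp for Tmem59l (0.981), Aqp4 for Dab1 (0.978), Chordc1 for Ntm (0.977), Rps6 for Twist2 (0.974), Ccdc163 for Aard (0.974) and Rere for Gpr142 (0.966). These values share the 9 libraries, and metastasis 2 alone sets much of each, so they are given without a p. Of the 10 matches, 8 did not meet the 4-fold rule themselves. Bzw2 was at 34.4, 18.6 and 31.9 FPKM in metastases 1, 2 and 3, and Cep112 at 4.64, 7.10 and 4.46 FPKM. Ovol2, a zinc-finger transcription factor of epithelia, itself met the rule, at 12.4, 1.26 and 17.9 FPKM in metastases 1, 2 and 3. Like Tex101, it was higher in each N134-RHAMMB tumour (10.5 to 11.96 FPKM) than in each N134 tumour (7.37 to 8.35 FPKM). Those tumours entered the correlation that picked Ovol2. Subcutaneous groups lay apart, in either direction, for 25.3% of all genes, and Ovol2 did not pass the test (limma adjusted p = 0.0916). Aqp4 met the rule too, at 0.322, 4.30 and 0.631 FPKM.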

How the data were processed

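Total RNA from 9 mouse tumour samples was sequenced. Per the labels' protocols it was extracted with a Qiagen column kit after shredding; for library preparation, strand and read length, details were not given in the sources used here. The submitters' processing notes name the build GRCm38 and the tools Cufflinks 2.1.1, STAR 2.5.2 and bcl2fastq 2.19. The authors deposited 1 table of FPKM values for 22053 rows of protein-coding genes, per the file headers. Counts are not used here. After dropping 7 rows with a failed estimate and 102 repeated symbols, 21944 genes remained, and 12854 with at least 1 FPKM in at least 3 libraries were tested.

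The 10 genes and all lists of related genes and cell type markers were chosen with earlier results of these data known. Levels and ratios among metastases are raw FPKM. Other differences are log2(FPKM + 1), which understates changes of low genes. The subcutaneous groups were compared with limma 3.58.1 in R 4.3.3 (variance trend, 6 libraries, 4 residual degrees of freedom, two-sided, adjusted p below 0.05); metastases were left out because the selection fixes their spread. The code was tested on simulated data. An exact permutation test of 3 against 3 was not used. Alternatives covered the pseudocount, filter, scaling, libraries in the fit, library weights, variance trend, a replicate block and each library left out.

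Depth was estimated from the FPKM of single fragments in genes with 1 transcript of 2000 to 6000 nucleotides. Rows with a failed estimate were dropped, and the 10 genes had the status OK in all libraries, so the 0 of Gpr142 is not a failed estimate. A low-data status in at least 1 library marked 40 rows, which were not dropped for it. Named beside the 10 genes are the others with the largest ratios (5 FPKM or more), up to 4 list members with the largest differences, each gene's most correlated gene, and genes added after their values were seen (Lrp8, Vldlr, Vim, Ucn, Cntn6, Ero1lb and single cell type markers). 1 gene that the naming rule selects is not reported here. Coordinates are the table's, in GRCm38, with 1 added to the start. Upstream windows are from RefSeq, GRCm38.p6.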

Additional observations from a re-analysis of the deposited data

How the results depend on the processing

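The 10 genes kept their 4-fold gap under every scaling and pseudocount tried. Under both scalings the number outside the subcutaneous range stayed at 10. The number with the subcutaneous tumours between the metastases stayed at 7. Leaving out a metastasis can only loosen the rule, and leaving out a subcutaneous tumour can only narrow the range. Those alternatives could not lower the counts of 10 and 7 and are no check of them. Alternatives for the count of 7 and for the chromosome medians were chosen after seeing the data. The number of genes apart in metastasis 2 depended on the rule. The 73 higher genes became 18 with a pseudocount of 1, 119 after quantile normalization, 23 at a minimum of 5 FPKM, 126 with no minimum, 281 at 2-fold and 28 at 8-fold. The 200 lower genes became 54 with a pseudocount of 1, 71 at 5 FPKM, 362 with no minimum, 758 at 2-fold and 94 at 8-fold. Leaving out 1 other metastasis gave 121 to 142 higher and 344 to 349 lower genes.

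In the subcutaneous comparison, 95 genes were higher and 74 lower in N134-RHAMMB tumours. The counts became 14 and 11 with no filter, 203 and 192 after quantile normalization, 10 and 15 in a fit on all 9 libraries, and 1301 and 871 with library weights; median-of-ratios scaling gave 148 lower genes. Leaving out 1 library gave 1 to 38 higher and 1 to 48 lower. Tex101 lost its call in 8 of 16 alternatives, among them the fit on all 9 libraries, where the selection fixed the spread. Cntn1 and Tmem59l gained a call with library weights, Cntn1 also after quantile normalization. With 1 library left out, Dab1 ran from -0.035 to 0.393, Ucn3 from -0.096 to 0.363 and Gpr142 from -0.028 to 0.512, and Gpr142 was at -0.086 with library weights. The causes were not tested.

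The replicate block left 0 genes in each direction (3194 at an unadjusted p under 0.05 in limma), with Dab1 at -0.13 and Tex101 at an adjusted p of 0.119. The groups share 2 replicate numbers, and the deviations of same-numbered tumours correlated across genes at 0.0429 and 0.102, so the numbers do not show a pairing. Depth limits the low values: in metastases 1 and 3, Twist2, Gpr142, Cntn1 and Dab1 rest on as few as 0 to 3 fragments in at least 1 library.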
